A study of Mus musculus with 17 samples.

Results

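Histone genes were followed in mouse pancreatic islets of mice with floxed Men1 (menin), floxed Rbp2 (an H3 demethylase), or both, and the Cre driver RIP-Cre. The genes were chosen by name: a probe set had to list a single gene whose symbol starts with one of 13 histone prefixes (H1f, H2ac, H2bc, H3c, H4c, H2az, H2ax, H3f and the older Hist1h to Hist4h and H2af forms). Where a gene had several such probe sets, the one with the highest mean over all arrays stood for it. This gave 34 genes of the 19938 measured. The chosen genes comprise 4 replication-dependent linker H1 genes, 3 H2A genes, 8 H2B genes, 3 H3 genes, 6 H4 genes, 5 variant genes and 5 genes known as germ cell types. Of the 34 genes, 23 lie on chromosome 13 in the RefSeq annotation and 5 on chromosome 3.

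Histones are the proteins around which DNA is wound: H2A, H2B, H3 and H4 form the core of the nucleosome and H1 binds the linker between cores. Most of their genes sit in clusters and are transcribed mainly in S phase, when new DNA needs packaging, and their mRNAs end in a stem-loop in place of a poly(A) tail. Variants such as H2A.Z and H3.3 are made throughout the cell cycle and are placed at promoters and active genes. Menin, the product of Men1 and a tumour suppressor of endocrine tissue, works with enzymes that methylate histone H3, and Rbp2 (gene Kdm5a) removes methyl groups from H3.

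Total RNA from isolated islets of untreated mice aged 2 months was measured on 17 arrays, 1 per sample. The groups were Men1flf Rbp2flf RIP-Cre (4 arrays), Men1flf RIP-Cre (3), Rbp2flf RIP-Cre (4), RIP-Cre without a floxed gene (3) and wt (3). The suffix flf, which marks the floxed allele, is left out from here on. RIP-Cre is the Cre recombinase driven by the rat insulin promoter, which acts in beta cells, so the other cells of an islet keep the floxed gene. Whether the arrays of a group came from separate animals is not in the labels, so a p-value covers only how these arrays vary, which may be technical.

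Values are log2 intensities, as deposited, and differences are on that log2 scale. A gene was called changed at a limma p-value below 0.05 after Benjamini-Hochberg adjustment over all 19938 genes. Over all genes the median difference from RIP-Cre was -0.15 in Men1 Rbp2 RIP-Cre, -0.23 in Men1 RIP-Cre and -0.13 in Rbp2 RIP-Cre islets. After cyclic loess normalization these medians were -0.01, -0.02 and -0.01 for these same groups. The array medians lay between 7.88 and 7.95 in Men1 Rbp2 RIP-Cre and between 7.86 and 7.87 in Men1 RIP-Cre islets, neither overlapping with the 7.97 to 8.16 of RIP-Cre islets, while those of Rbp2 RIP-Cre islets (7.82 to 7.98) did overlap. Relative to RIP-Cre, Men1 was lower by 0.77 in Men1 Rbp2 RIP-Cre (difference -0.77, SE 0.11, limma adjusted p = 0.000558) and by 1.06 in Men1 RIP-Cre islets (difference -1.06, SE 0.11, limma adjusted p = 3.08e-05), and higher by 0.73 in Rbp2 RIP-Cre islets (SE 0.11, limma adjusted p = 0.00359). Kdm5a was called neither in Men1 Rbp2 RIP-Cre (difference -0.02, SE 0.11, limma adjusted p = 0.896) nor in Rbp2 RIP-Cre islets (difference -0.22, SE 0.11, limma adjusted p = 0.148). The Kdm5a signal thus did not check the Rbp2 genotypes, which are given as labelled; where these probe sets lie relative to the floxed exons is not given in the sources used here. Of 10 beta cell markers, 7 were called higher in Men1 Rbp2 RIP-Cre islets, 7 in Men1 RIP-Cre islets and 3 in Rbp2 RIP-Cre islets relative to RIP-Cre, and none was lower, where 13.0%, 15.7% and 6.7% of all genes were called higher. Their array means ran from 12.38 to 12.56 in Men1 Rbp2 RIP-Cre, from 12.55 to 12.63 in Men1 RIP-Cre and from 12.26 to 12.45 in Rbp2 RIP-Cre islets, against 11.62 to 12.19 in RIP-Cre islets. Of all genes with a mean between 10 and 11, 36.6%, 37.5% and 22.4% were called higher in these knockout groups. Of all genes 20.6% were called lower in Men1 Rbp2 RIP-Cre, 37.8% in Men1 RIP-Cre and 6.7% in Rbp2 RIP-Cre islets. In each of Men1 Rbp2 RIP-Cre and Men1 RIP-Cre islets the genes called lower included 3 of 6 markers of other islet endocrine cells (median difference -0.31 in Men1 Rbp2 RIP-Cre and -0.64 in Men1 RIP-Cre islets) and all 3 Schwann cell markers (-0.52 and -0.63). The Schwann cell markers had array means from 7.42 to 8.54. Of all genes with a mean between 7 and 8, 26.0% were called lower in Men1 Rbp2 RIP-Cre and 50.4% in Men1 RIP-Cre islets. The array means of the endocrine markers ran from 10.69 to 11.02 in Men1 Rbp2 RIP-Cre, from 10.4 to 10.61 in Men1 RIP-Cre and from 11.04 to 11.11 in Rbp2 RIP-Cre islets, against 10.74 to 11.4 in RIP-Cre islets. Of 4 duct cell markers, 1 was called lower in Men1 Rbp2 RIP-Cre, 2 in Men1 RIP-Cre and 1 in Rbp2 RIP-Cre islets. Of 9 macrophage markers, 3 were called higher and 1 lower in Men1 Rbp2 RIP-Cre islets, and 3 higher and 2 lower in Men1 RIP-Cre islets. Of 7 endothelial markers, 1 was called higher and 3 lower in Men1 Rbp2 RIP-Cre islets. In Men1 RIP-Cre islets 2 were higher and 3 lower, and in Rbp2 RIP-Cre islets 2 were higher. Of 8 lymphocyte markers, 1 was higher in Men1 Rbp2 RIP-Cre, and 1 higher and 1 lower in Men1 RIP-Cre islets. In Men1 RIP-Cre islets 1 of 11 acinar and 2 of 2 red blood cell markers were lower. In Rbp2 RIP-Cre islets 1 of 6 mesenchymal markers was higher. No gene of any cell type list was at 0 on any array, the lowest value being 5.11. Fewer cells of a type and less RNA per cell cannot be told apart in whole islets, and the part of these markers in the results below was not tested.

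In Men1 Rbp2 RIP-Cre islets 14 of the 34 histone genes were called higher than in RIP-Cre islets and none was called lower. In some other fits 1 or 2 were called lower. There were 2 when only genes above the 25th percentile of mean level were fitted, and 2 without Men1 Rbp2 RIP-Cre array 1. It was 1 in each of the fits with wt and RIP-Cre pooled, with intensity trend and robust variances, and without RIP-Cre array 1. Over all genes 33.7% were called in this comparison, 13.0% higher and 20.6% lower, against 41.2% of the histone genes, all of them higher. The median difference was 0.28 over the histone genes and -0.15 over all genes. In Men1 RIP-Cre islets 8 histone genes were called, 6 higher and 2 lower, where 53.5% of all genes were called, 15.7% higher and 37.8% lower. The 6 higher calls are 17.6% of the histone genes, a share near that of all genes. In Rbp2 RIP-Cre islets 4 histone genes were called and all 4 were higher, which is 11.8% of the histone genes, where 13.4% of all genes were called, 6.7% higher and 6.7% lower. The median over the histone genes was 0.08 in Men1 RIP-Cre islets and 0.1 in Rbp2 RIP-Cre islets. These 3 comparisons share the 3 RIP-Cre arrays, so their calls are not independent of each other. The knockout groups set against each other gave few calls. Relative to Men1 RIP-Cre islets, H1f3 and H2bc9 were the histone genes called in Men1 Rbp2 RIP-Cre islets, both higher, where 1.67% of all genes were called and 1.1% were called higher. Relative to Rbp2 RIP-Cre islets limma called none of them in Men1 Rbp2 RIP-Cre islets, 8 had an unadjusted p below 0.05, and 1.2% of all genes were called. None had a called interaction, 5 had an unadjusted p below 0.05, and 3.39% of all genes were called. Without RIP-Cre array 3, which has the highest array median of its group, 8 histone genes were called higher in Men1 Rbp2 RIP-Cre islets (6.3% of all genes higher, 5.59% lower). In Men1 RIP-Cre islets 5 were then called higher and 1 lower (11.5% of all genes higher, 19.4% lower). None was called in Rbp2 RIP-Cre islets (0.622% of all genes higher and 0.497% lower there). With the array median as a covariate, H1f2 and H2az1 in Men1 Rbp2 RIP-Cre islets were the only calls relative to RIP-Cre, and none was made in Men1 RIP-Cre or Rbp2 RIP-Cre islets. The calls over all genes were few there too, with 0.863% higher and 0.542% lower in Men1 Rbp2 RIP-Cre, 1.06% and 0.923% in Men1 RIP-Cre, and 0.16% and 0.0502% in Rbp2 RIP-Cre islets. The array medians of Men1 Rbp2 RIP-Cre and Men1 RIP-Cre islets do not overlap with those of RIP-Cre islets, so covariate and genotype cannot be told apart in these comparisons.

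**Figure D1:**
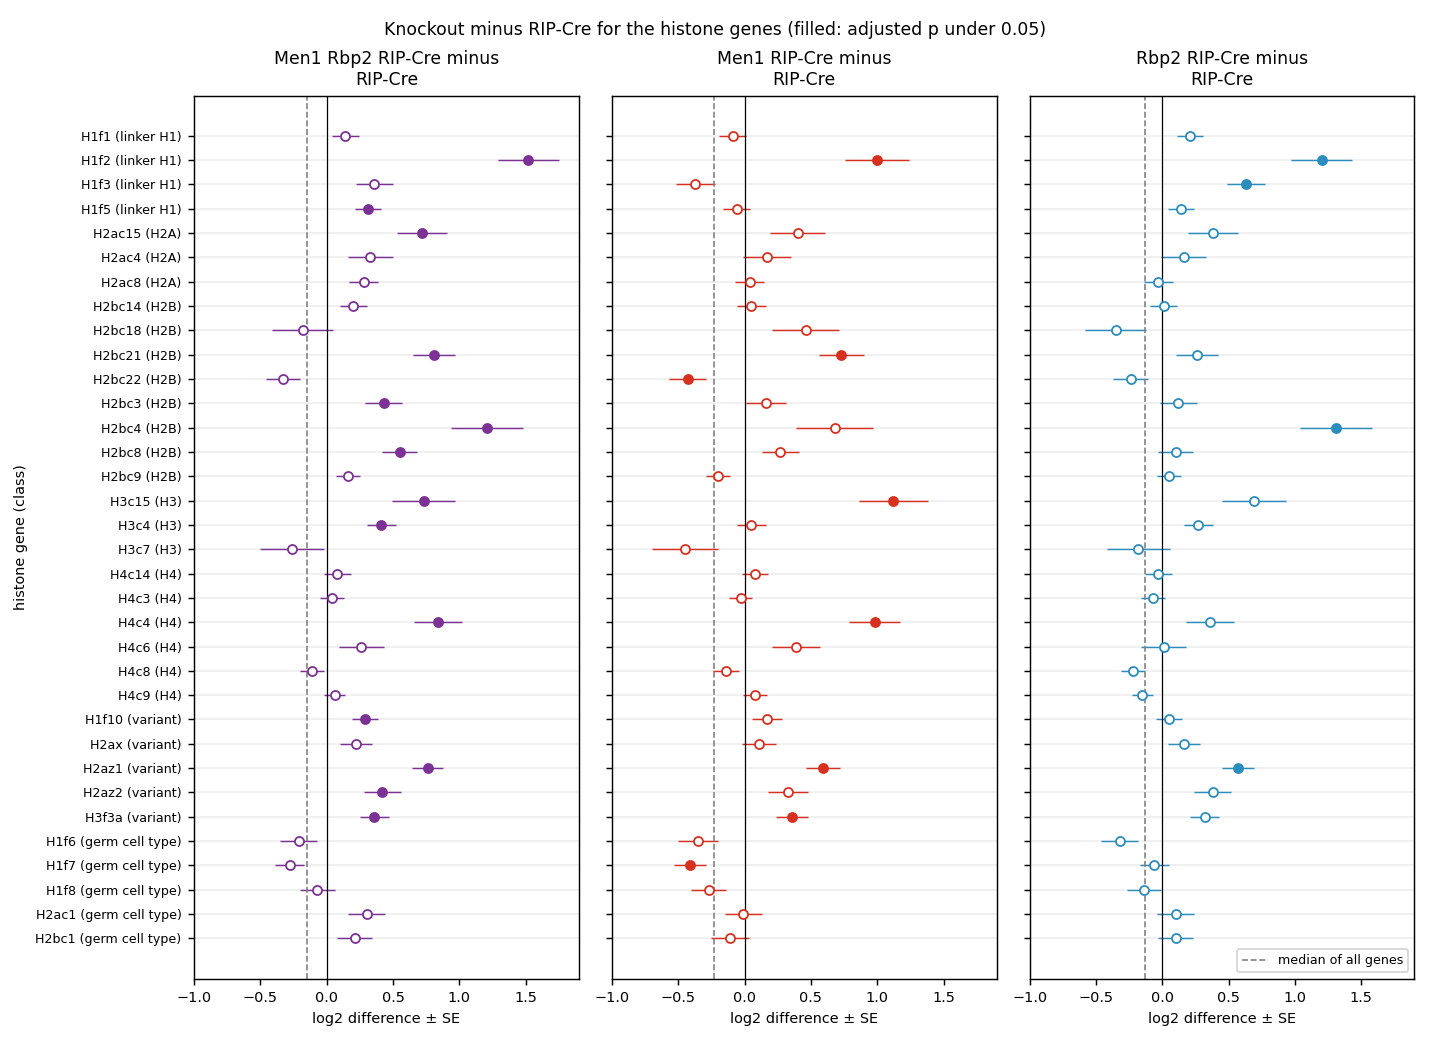
Log2 difference from RIP-Cre (x axis, with its standard error) of each of the 34 histone genes (y axis, by class) in Men1 Rbp2 RIP-Cre, Men1 RIP-Cre and Rbp2 RIP-Cre islets. Filled points passed the limma threshold and the dashed line is the median of all 19938 genes; in Men1 Rbp2 RIP-Cre islets the 14 filled points all lie above 0, and in each panel most points lie right of the dashed line.

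The Cre transgene alone was not accompanied by a called change. Between RIP-Cre and wt islets none of the 34 histone genes was called by limma, 1 had an unadjusted p below 0.05, and 0.0% of all genes were called. The differences ran from -0.3 to 0.25 with a median of -0.05. Among the 6 control arrays, wt array 2 held the highest value for 12 of the 34 histone genes, more than any other control array.

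Called histone genes were found at all levels of signal. Differences over all genes depended on intensity: in Men1 Rbp2 RIP-Cre islets the median was -0.26 for the 5336 genes with a mean below 7 and 0.17 for the 1519 genes with a mean between 10 and 11. Of the 5 histone genes with a mean between 10 and 11, 4 were called higher, with a median of 0.84, where 36.6% of all genes of that range were called higher. Between 9 and 10, 5 of 10 histone genes were called higher with a median of 0.3, where 25% of all 3434 genes of that range were called higher with a median of 0.05. Below 9, where 19 of the histone genes lie, 5 were called higher, 1 below 7, 2 between 7 and 8 and 2 between 8 and 9. The shares of all genes called higher in those 3 ranges were 1.14%, 5.52% and 14.4%. In Men1 RIP-Cre islets none of the 17 histone genes with a mean between 8 and 10 was called higher, while 19.4% of all genes between 8 and 9 and 28.9% of those between 9 and 10 were.

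**Figure D2:**
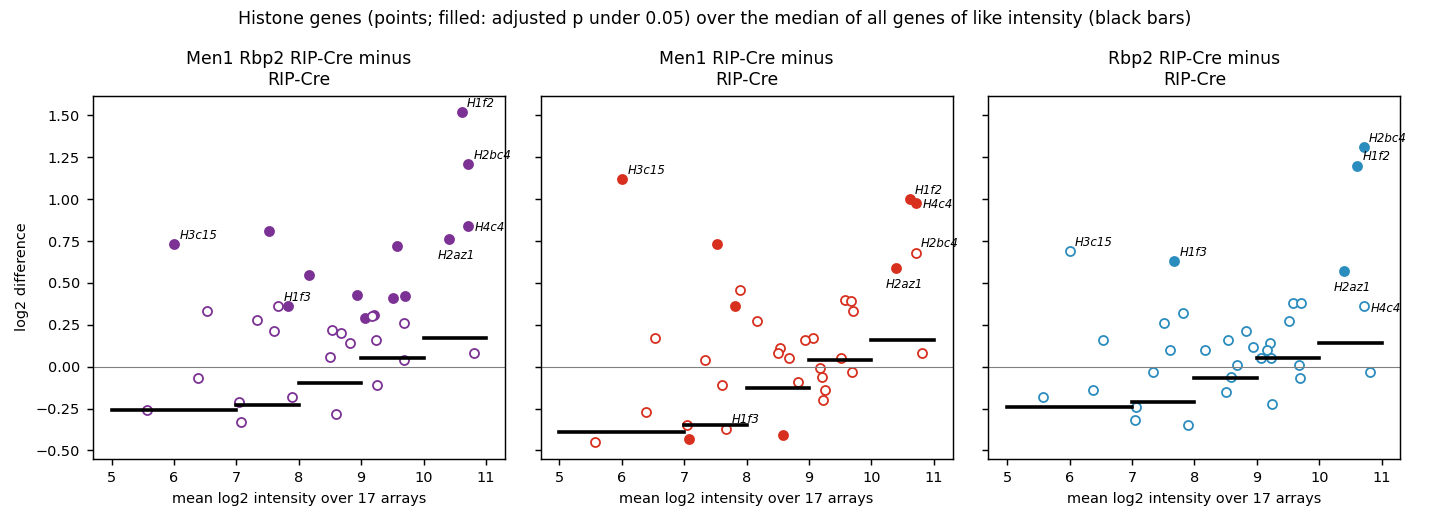
Log2 difference from RIP-Cre (y axis) against the mean log2 intensity over the 17 arrays (x axis) for the 34 histone genes in 3 knockout groups. Black bars give the median of all genes of like intensity, which runs from -0.26 to 0.17 in Men1 Rbp2 RIP-Cre islets; H1f2, H2bc4 and H4c4 stand above their bar in each panel.

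Among the linker histones, H1f2 had the largest difference of all 34 genes in Men1 Rbp2 RIP-Cre islets, and H1f3 was higher in both comparisons that differ in the Rbp2 genotype. H1 proteins bind where DNA enters and leaves the nucleosome and help to fold chromatin. H1f2 and H1f3 are replication-dependent genes of the chromosome 13 cluster, as are H1f1 and H1f5. The 150 bases before the start of 3 of them are shown because they carry the box AAACACA known from H1 promoters, and because their genes ranged from the largest difference to a small one. The box and CCAAT, each searched on both strands, are in capitals; the sequences are from RefSeq (GRCm38.p6) and read 5′ to 3′ towards the gene, at chr13:23738657-23738806 (+) for H1f2, chr13:23554882-23555031 (+) for H1f3 and chr13:21780626-21780775 (-) for H1f5.
H1f2: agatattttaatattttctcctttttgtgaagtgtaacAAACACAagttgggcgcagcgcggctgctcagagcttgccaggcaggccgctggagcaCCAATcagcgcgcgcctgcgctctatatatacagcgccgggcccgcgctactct
H1f3: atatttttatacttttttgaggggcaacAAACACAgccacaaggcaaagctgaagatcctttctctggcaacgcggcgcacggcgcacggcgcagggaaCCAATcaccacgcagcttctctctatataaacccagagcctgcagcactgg
H1f5: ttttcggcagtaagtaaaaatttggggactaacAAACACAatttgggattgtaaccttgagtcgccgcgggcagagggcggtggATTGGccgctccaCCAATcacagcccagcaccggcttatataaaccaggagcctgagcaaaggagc
AAACACA lies within 250 bases before the start of 3 of the 4 linker H1 genes, H1f1 being the exception, and in 6.25% of the 32851 windows of the same length before the starts of all genes. CCAAT lies in all 4 linker H1 windows and in 33.8% of all windows. Such matches describe the letters of a window and not a site in use.

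H1f2 read 10.93, 11.64, 11.13 and 11.44 in Men1 Rbp2 RIP-Cre islets, 10.59, 10.84 and 10.88 in Men1 RIP-Cre islets and 11.57, 10.67, 10.70 and 10.95 in Rbp2 RIP-Cre islets, against 9.98, 9.85 and 9.48 in RIP-Cre and 9.89, 10.32 and 9.49 in wt islets. Every one of the 11 knockout arrays was above every one of the 6 control arrays. H2az1 was the only other histone gene with that pattern, which 3.52% of all genes had. Relative to RIP-Cre, H1f2 was higher by 1.52 in Men1 Rbp2 RIP-Cre islets (SE 0.23, 2.86-fold, limma adjusted p = 0.000909), by 1.0 in Men1 RIP-Cre islets (SE 0.24, 2.0-fold, limma adjusted p = 0.00452) and by 1.2 in Rbp2 RIP-Cre islets (SE 0.23, 2.3-fold, limma adjusted p = 0.0108). The Men1 Rbp2 RIP-Cre difference was less than the sum of the other two: the interaction was -0.69 (SE 0.32), which did not pass adjustment (limma adjusted p = 0.134). The call in Men1 Rbp2 RIP-Cre islets held in all 11 other settings and with each of 7 arrays left out, with adjusted p between 9.5e-05 and 0.0264. The Men1 RIP-Cre call was lost with the array median as a covariate, and the Rbp2 RIP-Cre call there and without RIP-Cre array 3.

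H1f3 read 8.0, 8.01, 7.70 and 7.61 in Men1 Rbp2 RIP-Cre islets and 6.99, 7.05 and 7.26 in Men1 RIP-Cre islets. It read 8.30, 8.06, 7.87 and 8.16 in Rbp2 RIP-Cre islets, against 7.61, 7.48 and 7.32 in RIP-Cre and 7.40, 7.96 and 7.61 in wt islets. The Men1 Rbp2 RIP-Cre arrays lay above all Men1 RIP-Cre arrays, which were the lowest of all. The Rbp2 RIP-Cre arrays lay above all RIP-Cre arrays, but wt array 2 lay above Rbp2 RIP-Cre array 3. These 2 comparisons share no array. H1f3 was higher by 0.73 in Men1 Rbp2 RIP-Cre relative to Men1 RIP-Cre islets (SE 0.14, limma adjusted p = 0.0123) and by 0.63 in Rbp2 RIP-Cre relative to RIP-Cre islets (SE 0.14, limma adjusted p = 0.0188). The interaction was 0.1 (SE 0.2, limma adjusted p = 0.712). The lower value in Men1 RIP-Cre relative to RIP-Cre islets, -0.37 (SE 0.15), just missed the threshold (limma adjusted p = 0.0507). Over the settings and left-out arrays the adjusted p ran from 0.00376 to 0.102 in the first comparison and from 0.00807 to 0.288 in the second. The first was lost under cyclic loess and quantile normalization and without Men1 RIP-Cre array 1 or 2. The second was lost with wt as the control, with the array median as a covariate, with the 3 control arrays of high median left out (RIP-Cre array 3, wt arrays 1 and 3), and without RIP-Cre array 3 or Rbp2 RIP-Cre array 1.

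The other linker genes had smaller differences. H1f5 was called higher in Men1 Rbp2 RIP-Cre islets only by 0.31 (SE 0.1, limma adjusted p = 0.0263), a call that held in 7 of 11 other settings and with 3 of 7 arrays left out. H1f1 was not called in any comparison, with differences from RIP-Cre of 0.14 in Men1 Rbp2 RIP-Cre, -0.09 in Men1 RIP-Cre and 0.21 in Rbp2 RIP-Cre islets.

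**Figure D3:**
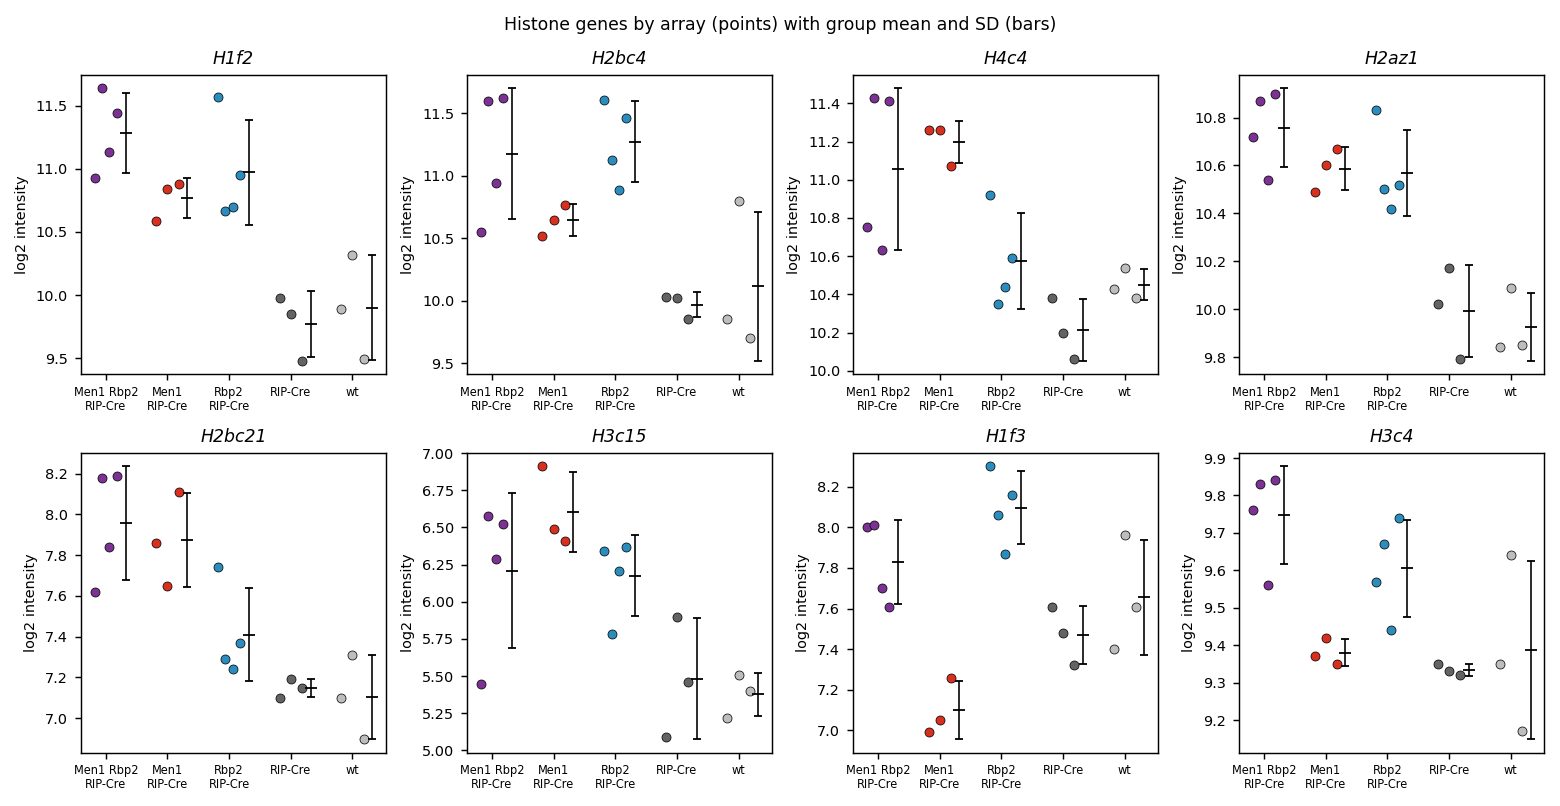
Log2 intensity (y axis) of 8 histone genes on each of the 17 arrays (points), with the mean and SD of each group (bars); groups run from Men1 Rbp2 RIP-Cre to wt. All 11 knockout arrays lie above all 6 control arrays for H1f2 and H2az1, and wt array 2 reaches 10.80 for H2bc4, inside the knockout range.

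Of the H2A genes only H2ac15 was called. H2ac15 encodes a replication-dependent H2A. It read 10.19, 10.08, 9.36 and 10.19 in Men1 Rbp2 RIP-Cre islets, 9.52, 9.66 and 9.74 in Men1 RIP-Cre islets and 9.77, 9.44, 9.41 and 9.83 in Rbp2 RIP-Cre islets, against 9.08, 9.62 and 9.01 in RIP-Cre and 9.37, 9.54 and 9.12 in wt islets. Men1 Rbp2 RIP-Cre array 3 lay inside the control range and the other 3 arrays of its group lay above it. The difference from RIP-Cre was 0.72 in Men1 Rbp2 RIP-Cre islets (SE 0.19, 1.65-fold, limma adjusted p = 0.0134). It was 0.4 in Men1 RIP-Cre and 0.38 in Rbp2 RIP-Cre islets, neither of them called. The Men1 Rbp2 RIP-Cre call was lost without RIP-Cre array 3, without the 3 control arrays of high median and with the array median as a covariate. H2ac4 was not called in any knockout comparison with RIP-Cre.

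H2ac8 and H2bc8 are transcribed away from each other from starts with 179 bases between them. They are 1 of 9 such H2A and H2B pairs found among genes with a promoter window, from which the strands were taken. Among these 9 they are the only pair of somatic type with both genes measured here. Both carry replication-dependent core histones. The stretch between the starts (RefSeq, GRCm38.p6, chr13:23571221-23571399, + strand, so that H2bc8 starts at its right end) is shown with the CCAAT box, the TATA box TATAAA and the octamer ATTTGCAT, on either strand, in capitals.
H2ac8/H2bc8: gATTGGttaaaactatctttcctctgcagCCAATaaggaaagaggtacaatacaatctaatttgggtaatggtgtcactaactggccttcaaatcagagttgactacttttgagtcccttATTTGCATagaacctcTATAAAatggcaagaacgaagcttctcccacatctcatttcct
The octamer lies before 4 of 6 H2B genes and 2 of 3 H2A genes with a window, and in 1.6% of all windows. H2bc8 read 8.47, 8.78, 8.28 and 8.56 in Men1 Rbp2 RIP-Cre islets, against 7.82, 8.10 and 8.01 in RIP-Cre islets, with no overlap. H2ac8 read 7.57, 7.63, 7.26 and 7.73 in Men1 Rbp2 RIP-Cre islets, against 7.16, 7.25 and 7.39 in RIP-Cre islets, and array 3 of Men1 Rbp2 RIP-Cre lay inside the RIP-Cre range. H2bc8 was higher by 0.55 (SE 0.13, limma adjusted p = 0.00865), whereas H2ac8, at 0.28 (SE 0.11), narrowly missed the threshold (limma adjusted p = 0.0523). Neither was called in the other two knockout groups: in Men1 RIP-Cre islets H2bc8 differed by 0.27 and H2ac8 by 0.04, and in Rbp2 RIP-Cre islets H2bc8 differed by 0.1 and H2ac8 by -0.03.

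Among the 8 H2B genes H2bc4 and H2bc21 had the largest differences in Men1 Rbp2 RIP-Cre islets. Of the 8 genes, 4 were called higher in Men1 Rbp2 RIP-Cre islets, H2bc4, H2bc21, H2bc8 and H2bc3. H2bc4 read 10.55, 11.60, 10.94 and 11.62 in Men1 Rbp2 RIP-Cre islets, 10.52, 10.65 and 10.77 in Men1 RIP-Cre islets and 11.61, 11.13, 10.89 and 11.46 in Rbp2 RIP-Cre islets, against 10.03, 10.02 and 9.85 in RIP-Cre and 9.85, 10.80 and 9.70 in wt islets. All knockout arrays were above all RIP-Cre arrays, and wt array 2 lay among the knockout arrays. The difference from RIP-Cre was 1.21 in Men1 Rbp2 RIP-Cre islets (SE 0.27, 2.31-fold, limma adjusted p = 0.00552) and 1.31 in Rbp2 RIP-Cre islets (SE 0.27, 2.47-fold, limma adjusted p = 0.0142). In Men1 RIP-Cre islets it was 0.68 (SE 0.29, limma adjusted p = 0.0543), not called. The Rbp2 RIP-Cre call was lost without RIP-Cre array 3, and both calls were lost with the array median as a covariate.

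H2bc21, an H2B gene of the smaller cluster on chromosome 3, was called higher in both groups with floxed Men1. It read 7.62, 8.18, 7.84 and 8.19 in Men1 Rbp2 RIP-Cre islets, 7.86, 7.65 and 8.11 in Men1 RIP-Cre islets and 7.74, 7.29, 7.24 and 7.37 in Rbp2 RIP-Cre islets, against 7.10, 7.19 and 7.15 in RIP-Cre and 7.10, 7.31 and 6.90 in wt islets. Arrays with floxed Men1 and RIP-Cre were above all control arrays, and the Rbp2 RIP-Cre arrays overlapped with both. It was higher than in RIP-Cre islets by 0.81 in Men1 Rbp2 RIP-Cre islets (SE 0.16, limma adjusted p = 0.0031) and by 0.73 in Men1 RIP-Cre islets (SE 0.17, limma adjusted p = 0.00336), and in Rbp2 RIP-Cre islets the difference was 0.26 (SE 0.16, limma adjusted p = 0.213). Relative to Rbp2 RIP-Cre islets, the difference in Men1 Rbp2 RIP-Cre islets was 0.55 (SE 0.14), which did not pass adjustment (limma adjusted p = 0.083). With the array median as a covariate neither call was made.

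The remaining H2B genes differed in direction. H2bc3 was higher by 0.43 in Men1 Rbp2 RIP-Cre islets (SE 0.14, limma adjusted p = 0.0276), and the call held in 9 of 11 other settings but with only 2 of 7 arrays left out. H2bc22 was lower by 0.43 in Men1 RIP-Cre islets (difference -0.43, SE 0.14, limma adjusted p = 0.0177), a call that held in 6 of 11 other settings and with 4 of 6 arrays left out, and was lost under cyclic loess and quantile normalization and with wt as the control. H2bc9 read 9.42, 9.44, 9.17 and 9.43 in Men1 Rbp2 RIP-Cre islets, against 9.01, 8.97 and 9.02 in Men1 RIP-Cre islets. It was 0.36 higher in that comparison (SE 0.09, limma adjusted p = 0.0387), with no overlap. The call held in 6 of 8 other settings but with only 1 of 7 arrays left out. H2bc14 and H2bc18 were not called in any comparison with RIP-Cre.

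The Rbp2 genotypes were compared both with and without floxed Men1, on separate arrays. Of the 34 histone genes 19 were above 0 in both comparisons and 2 below 0 in both, a same-sign share of 61.8%, where it was 34.0% over all genes. Across genes Pearson's r between these comparisons was 0.41 over the histone genes and -0.13 over all genes. For the Men1 genotypes, with and without floxed Rbp2, 20 histone genes were above 0 in both and 5 below 0 in both, a same-sign share of 73.5%, where it was 66.8% over all genes, and r was 0.53 and 0.49. Genes are not independent replicates and share arrays, so these values are descriptions. They were computed on the deposited values only. There the median over all genes was -0.13 for Rbp2 RIP-Cre minus RIP-Cre and 0.07 for Men1 Rbp2 RIP-Cre minus Men1 RIP-Cre, of opposite sign. After cyclic loess these medians were -0.01 and 0.0. The part of these medians in the share of 34.0% was not tested.

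H3c15 and H3c4 were the called H3 genes. H3c15, an H3 gene of the chromosome 3 cluster, read 5.45, 6.58, 6.29 and 6.52 in Men1 Rbp2 RIP-Cre islets, 6.91, 6.49 and 6.41 in Men1 RIP-Cre islets and 6.34, 5.78, 6.21 and 6.37 in Rbp2 RIP-Cre islets, against 5.09, 5.90 and 5.46 in RIP-Cre and 5.22, 5.51 and 5.40 in wt islets. Men1 RIP-Cre arrays did not overlap with the controls, while 1 array of each other knockout group did. It was higher by 1.12 in Men1 RIP-Cre islets (SE 0.26, 2.17-fold, limma adjusted p = 0.00352), which held with each of 6 arrays left out but not with the array median as a covariate. In Men1 Rbp2 RIP-Cre islets the difference was 0.73 (SE 0.24, limma adjusted p = 0.0322), a call that held in 6 of 10 other settings and with 2 of 7 arrays left out. In Rbp2 RIP-Cre islets it was 0.69 (SE 0.24, limma adjusted p = 0.0622), not called. H3c4 read 9.76, 9.83, 9.56 and 9.84 in Men1 Rbp2 RIP-Cre islets and 9.37, 9.42 and 9.35 in Men1 RIP-Cre islets, against 9.35, 9.33 and 9.32 in RIP-Cre islets. It was higher by 0.41 in Men1 Rbp2 RIP-Cre islets (SE 0.11, limma adjusted p = 0.0111), with no overlap, although wt array 2, at 9.64, lay above its lowest array. The differences were 0.05 in Men1 RIP-Cre and 0.27 in Rbp2 RIP-Cre islets (SE 0.11 each), neither called. H3c7, also of low signal, was not called in any comparison.

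Of 6 H4 genes, which all encode the same core histone, only H4c4 was called. The 150 bases before its start are set beside those of 2 H4 genes that were not called, because all 3 hold the H4 promoter letters GGTCCG at a like distance from the start. GGTCCG and TATAAA are in capitals, from RefSeq (GRCm38.p6) at chr13:23581418-23581567 (+) for H4c4, chr13:23698459-23698608 (-) for H4c3 and chr13:23551669-23551818 (-) for H4c6.
H4c4: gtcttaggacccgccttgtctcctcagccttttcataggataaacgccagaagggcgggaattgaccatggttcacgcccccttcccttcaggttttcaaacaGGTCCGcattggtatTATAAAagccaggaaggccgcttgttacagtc
H4c3: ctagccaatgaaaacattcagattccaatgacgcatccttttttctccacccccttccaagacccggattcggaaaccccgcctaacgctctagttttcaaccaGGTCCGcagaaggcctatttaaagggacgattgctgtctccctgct
H4c6: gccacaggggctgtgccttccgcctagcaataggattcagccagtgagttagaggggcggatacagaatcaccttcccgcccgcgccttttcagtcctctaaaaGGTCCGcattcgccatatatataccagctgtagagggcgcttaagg
GGTCCG lies before 4 of the 5 H4 genes with a window and in 6.72% of all windows. H4c4 read 10.75, 11.43, 10.63 and 11.41 in Men1 Rbp2 RIP-Cre islets, 11.26, 11.26 and 11.07 in Men1 RIP-Cre islets and 10.92, 10.35, 10.44 and 10.59 in Rbp2 RIP-Cre islets, against 10.38, 10.20 and 10.06 in RIP-Cre and 10.43, 10.54 and 10.38 in wt islets. Arrays with floxed Men1 and RIP-Cre were above all 6 control arrays, and the Men1 Rbp2 RIP-Cre arrays fell into a higher and a lower pair. H4c4 was higher by 0.84 in Men1 Rbp2 RIP-Cre islets (SE 0.18, 1.79-fold, limma adjusted p = 0.00494) and by 0.98 in Men1 RIP-Cre islets (SE 0.19, 1.98-fold, limma adjusted p = 0.00146). In Rbp2 RIP-Cre islets the difference was 0.36 (SE 0.18, limma adjusted p = 0.149). Both calls held with each array left out and were lost with the array median as a covariate. H4c3 differed from RIP-Cre by 0.04 in Men1 Rbp2 RIP-Cre islets and H4c6 by 0.26, and across the other H4 genes the differences ran from -0.11 to 0.08.

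Many histone genes are so alike that the array lists them on shared probe sets, which no name rule can assign to a gene. Of 74 protein-coding genes with these prefixes in RefSeq, 40 are not among the 34, and 37 of those 40 are listed on 32 shared probe sets. These were fitted together with the 19938 genes. In Men1 Rbp2 RIP-Cre islets all 10 H3 probe sets (listing 12 genes), all 7 H2B probe sets (14 or 15 genes), both H2A probe sets (19 and 20 genes), all 5 H4 probe sets listing 11 genes and all 6 H3.3 probe sets were called higher than in RIP-Cre islets, where 13.2% of all features of that fit were called higher. Probe sets that list the same genes may measure the same transcripts and do not count as separate evidence. The differences were 0.53 to 0.61 for H3, 0.56 to 0.66 for H2B, 0.46 and 0.43 for H2A, 0.46 to 0.49 for H4 and 0.45 to 0.71 for H3.3. The remaining 2 probe sets were not called, 1 of H4 that lists 2 genes (difference 0.09) and 1 that lists 2 genes and was not sorted into any of these families (0.07). In Men1 RIP-Cre islets the 5 H4 probe sets (0.39 to 0.43) and 5 of the 6 H3.3 probe sets were called higher, where 15.7% of all features were. None of the H2A, H2B and H3 probe sets was called there, the H3 differences being 0.03 to 0.08. In Rbp2 RIP-Cre islets 5 of the 6 H3.3 probe sets were called higher, where 6.71% of all features were, and none of the others, with 0.28 to 0.32 for H3. Averaged by family and number of genes listed, the families with calls read from 10.03 to 12.26 on the arrays. Of all genes with a mean between 10 and 11, 36.6% were called higher in Men1 Rbp2 RIP-Cre islets. The shares were 37.5% in Men1 RIP-Cre and 22.4% in Rbp2 RIP-Cre islets. No such share was taken for genes above 11.

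The mean of the 10 H3 probe sets was 11.85, 11.51, 11.14 and 11.53 in Men1 Rbp2 RIP-Cre islets, 10.71, 11.19 and 11.05 in Men1 RIP-Cre islets and 11.29, 11.24, 11.03 and 11.35 in Rbp2 RIP-Cre islets, against 10.93, 11.24 and 10.61 in RIP-Cre and 10.99, 11.27 and 10.80 in wt islets. Array 3 of Men1 Rbp2 RIP-Cre lay inside the control range and the other 3 arrays of that group lay above all control arrays. The mean of the 5 H4 probe sets was 12.13, 12.26, 11.98 and 12.24 in Men1 Rbp2 RIP-Cre islets and 12.08, 12.14 and 12.03 in Men1 RIP-Cre islets, against 11.93, 11.74 and 11.37 in RIP-Cre and 11.75, 12.18 and 11.52 in wt islets. For H4 both groups were above the RIP-Cre arrays, and wt array 2 lay among them. Since 20 of the 34 genes are also listed on shared probe sets, signal of a near-identical gene on a probe set named for 1 gene cannot be told apart here from that gene's own.

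**Figure D4:**
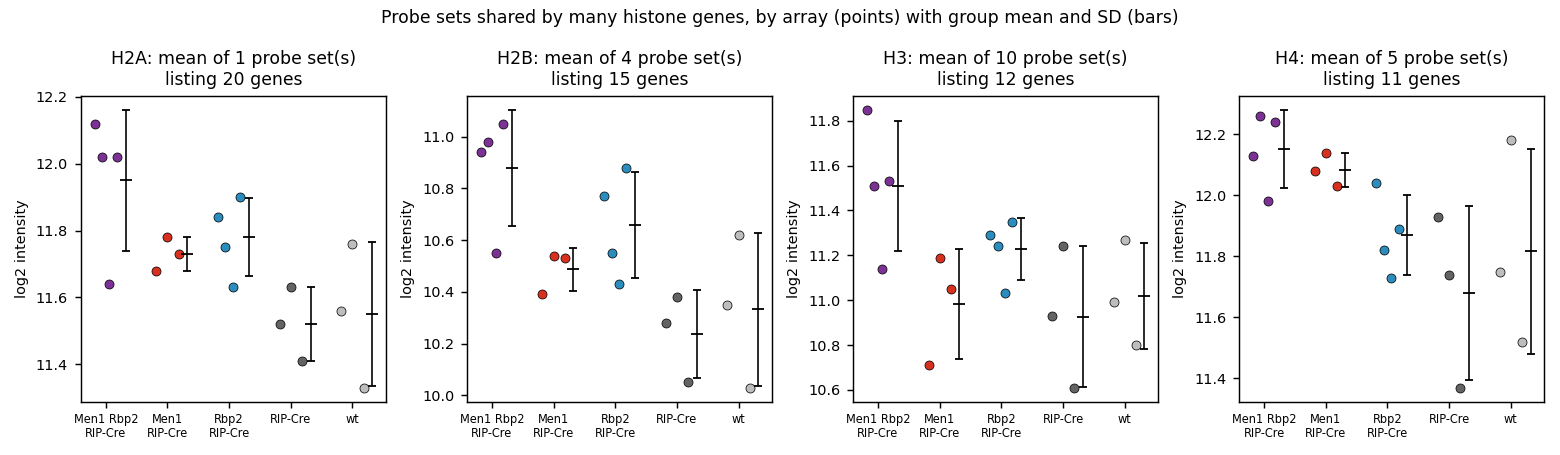
Mean log2 intensity (y axis) of the probe sets that list the most H2A, H2B, H3 or H4 genes on each of the 17 arrays (points), with the mean and SD of each group (bars). For H3 the Men1 Rbp2 RIP-Cre arrays span 11.14 to 11.85, against 10.61 to 11.24 in RIP-Cre islets, and wt array 2 is the highest wt array in each panel.

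Among the variants H2az1 was called higher in all 3 knockout groups. H2az1 encodes H2A.Z, a variant of H2A at promoters and enhancers. The 150 bases before its start are shown for that reason; CCAAT, on either strand, is in capitals (RefSeq, GRCm38.p6, chr3:137864337-137864486, +).
H2az1: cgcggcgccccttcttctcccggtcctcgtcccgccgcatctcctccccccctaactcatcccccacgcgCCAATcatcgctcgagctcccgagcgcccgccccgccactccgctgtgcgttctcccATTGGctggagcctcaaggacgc
TATAAA was found before none of the 4 variant genes with a window, before 14 of 29 histone genes and in 12.4% of all windows. H2az1 read 10.72, 10.87, 10.54 and 10.90 in Men1 Rbp2 RIP-Cre islets, 10.49, 10.60 and 10.67 in Men1 RIP-Cre islets and 10.83, 10.50, 10.42 and 10.52 in Rbp2 RIP-Cre islets, against 10.02, 10.17 and 9.79 in RIP-Cre and 9.84, 10.09 and 9.85 in wt islets. All knockout arrays were above all control arrays. The difference from RIP-Cre was 0.76 in Men1 Rbp2 RIP-Cre islets (SE 0.12, 1.7-fold, limma adjusted p = 0.00135), 0.59 in Men1 RIP-Cre islets (SE 0.13, 1.51-fold, limma adjusted p = 0.00257) and 0.57 in Rbp2 RIP-Cre islets (SE 0.12, 1.49-fold, limma adjusted p = 0.0151). The interaction of -0.4 (SE 0.17) did not pass adjustment (limma adjusted p = 0.109). The Men1 Rbp2 RIP-Cre call held in all 11 other settings and with each of 7 arrays left out. The Men1 RIP-Cre call was lost with the array median as a covariate, and the Rbp2 RIP-Cre call there, without RIP-Cre array 3 and without the 3 control arrays of high median.

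The other variants had smaller differences. H2az2, the second H2A.Z gene, was higher by 0.42 in Men1 Rbp2 RIP-Cre islets (SE 0.14, limma adjusted p = 0.0305). The call held in 5 of 11 other settings and with 2 of 7 arrays left out, and was lost under cyclic loess and quantile normalization. H3f3a, an H3.3 gene, was higher by 0.36 in Men1 Rbp2 RIP-Cre islets (SE 0.11, limma adjusted p = 0.0247) and by 0.36 in Men1 RIP-Cre islets (SE 0.12, limma adjusted p = 0.0205). In Rbp2 RIP-Cre islets it differed by 0.32 (SE 0.11, limma adjusted p = 0.0624), not called. Both H3f3a calls were lost without RIP-Cre array 3; the first held with 4 of 7 arrays left out and the second with 4 of 6. H1f10, a linker variant known as H1x, was higher by 0.29 in Men1 Rbp2 RIP-Cre islets (SE 0.1, limma adjusted p = 0.0386), a call that held in 7 of 11 other settings and with 2 of 7 arrays left out. H2ax, whose product is phosphorylated at DNA breaks, was not called, with differences from RIP-Cre of 0.22, 0.11 and 0.16 in Men1 Rbp2 RIP-Cre, Men1 RIP-Cre and Rbp2 RIP-Cre islets.

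None of the genes known as germ cell types was called higher in any comparison. H1f6 and H1f7 are H1 types of male germ cells, H1f8 is the oocyte H1, and H2ac1 and H2bc1 are testis types. H1f7 read 8.16, 8.46 and 8.41 in Men1 RIP-Cre islets, against 8.80, 8.75 and 8.72 in RIP-Cre islets. It was lower in Men1 RIP-Cre islets with no overlap (difference -0.41, SE 0.12, limma adjusted p = 0.00964), a call that was lost without Men1 RIP-Cre array 1 and with the array median as a covariate (limma adjusted p = 0.529 with the covariate). Over the 5 genes the median difference in Men1 RIP-Cre islets was -0.27, where that of all genes was -0.23.

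Exact permutation tests on the called genes, 2-sided, cannot go below 0.1 for 3 arrays against 3 or below 0.0571 for 4 against 3. All 8 genes called in Men1 RIP-Cre and all 4 called in Rbp2 RIP-Cre islets reached the smallest exact p possible, as did 9 of the 14 called in Men1 Rbp2 RIP-Cre islets. The other 5 had an exact permutation p of up to 0.171. Only genes already called by limma on the same arrays were tested, so these counts are not separate evidence.

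Genes that act with histones were taken from lists. Of 28 measured S phase genes, 9 were called higher and 2 lower in Men1 Rbp2 RIP-Cre islets relative to RIP-Cre, where 13.0% and 20.6% of all genes were. In Men1 RIP-Cre islets 4 were higher and 4 lower, where 15.7% and 37.8% of all genes were, and in Rbp2 RIP-Cre islets 1 was higher and 1 lower, where 6.7% of all genes were called in each direction. Pcna, the clamp of DNA polymerases, was higher by 1.03 in Men1 Rbp2 RIP-Cre (SE 0.17, limma adjusted p = 0.00171) and by 0.98 in Men1 RIP-Cre islets (SE 0.18, limma adjusted p = 0.00113). Mcm4, of the replicative helicase, was higher by 0.56 in Men1 Rbp2 RIP-Cre islets, while Orc1, of the origin recognition complex, and Ung, a uracil glycosylase, were both lower by the same size, with differences of -0.42. Rrm1, of ribonucleotide reductase, was higher by 0.76 in Men1 RIP-Cre and by 0.44 in Rbp2 RIP-Cre islets, and Cdc6, a replication licensing factor, was lower in Rbp2 RIP-Cre islets (difference -0.51). Called lower in Men1 RIP-Cre islets were E2f2 (difference -0.51, SE 0.15, limma adjusted p = 0.0101) and Orc1 (difference -0.31, SE 0.11, limma adjusted p = 0.0275). The array means of the 28 genes were 7.97 to 8.10 in Men1 Rbp2 RIP-Cre islets and 7.83 to 8.02 in Men1 RIP-Cre islets. They were 7.68 to 7.86 in Rbp2 RIP-Cre islets, against 7.77 to 7.97 in RIP-Cre islets. The part of S phase in the histone results was not tested.

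Of 16 measured genes for histone mRNA transcription and end processing, 1 was called higher in Men1 Rbp2 RIP-Cre islets, 3 higher and 3 lower in Men1 RIP-Cre islets and none in Rbp2 RIP-Cre islets. These are 6.25% higher in Men1 Rbp2 RIP-Cre islets, where 13.0% of all genes were, and 18.8% in each direction in Men1 RIP-Cre islets, where 15.7% of all genes were higher and 37.8% lower. Ccne2, a cyclin of the entry into S phase, was higher by 0.45 both in Men1 Rbp2 RIP-Cre (SE 0.12, limma adjusted p = 0.0112) and in Men1 RIP-Cre islets (SE 0.12, limma adjusted p = 0.0082). Lsm11, of the particle that cuts histone mRNA ends, was lower in Men1 RIP-Cre islets (difference -0.41, SE 0.12, limma adjusted p = 0.011). Zfp473 was also lower there (difference -0.36, SE 0.11, limma adjusted p = 0.017), and Cpsf2 was higher by 0.25 (SE 0.09, limma adjusted p = 0.0316). Slbp, which binds the stem-loop, ran from 7.75 to 8.16 in Men1 Rbp2 RIP-Cre islets, against 7.73 to 8.0 in RIP-Cre islets. Of 20 measured histone chaperones, 4 were called higher in Men1 Rbp2 RIP-Cre islets, 6 higher in Men1 RIP-Cre islets and 2 higher and 3 lower in Rbp2 RIP-Cre islets. The shares called higher, 20% in Men1 Rbp2 RIP-Cre, 30% in Men1 RIP-Cre and 10% in Rbp2 RIP-Cre islets, stand beside 13.0%, 15.7% and 6.7% of all genes. Nap1l1, a chaperone of H2A and H2B, was higher by 1.23 in Men1 RIP-Cre islets (SE 0.22, limma adjusted p = 0.00092), and Rbbp4, a histone-binding subunit of several complexes, by 0.63. Rbbp4 was also higher in Rbp2 RIP-Cre islets, by 0.53, as was Dnajc9 by 0.39, while Chaf1a and Chaf1b, of the assembly factor that follows replication, were lower there (differences -0.39 and -0.45). Asf1b, a chaperone of H3 and H4, was higher by 0.55 and Dnajc9 by 0.47 in Men1 Rbp2 RIP-Cre islets.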

How the data were processed

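The authors deposited log2 intensities per probe set for 17 arrays, on GeneChip whole-transcript labelling per the labels' protocols. How the authors corrected background and scaled the arrays was not given in the sources used here, and base 2 was inferred from the spacing of low values. Of 35512 probe sets, 21789 list 1 gene symbol, 1621 several and 12102 are unnamed here; 21698 single-gene identifiers were found in RefSeq. Genes were represented by the probe set of highest mean. Groups came from the sample titles. Group means of all 5 groups were fitted with limma 3.58.1 (lmFit, eBayes, R 4.3.3) to 19938 genes, 7 contrasts were tested, and p-values were adjusted by Benjamini-Hochberg over all genes of a contrast at 0.05. The interaction is Men1 Rbp2 RIP-Cre minus Rbp2 RIP-Cre, minus the difference of Men1 RIP-Cre and RIP-Cre. The fit was tested on simulated data. Arrays carry no counts, so their number limits the precision.

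Histone genes and all lists were chosen with earlier results of these data known. Named genes were the 5 highest and 5 lowest moderated t among called histone genes per comparison. Listed variants, the paired H2A and H2B genes and the targeted genes were also named. Of the processing, chaperone, S phase and variant lists, the 2 highest and 2 lowest per knockout comparison were named, mostly only where called. Other called genes are named after their values were seen. Promoter windows reach 250 bases before the start of 29 of the 34 genes (RefSeq, GRCm38.p6); 6 motifs were searched on both strands. Alternatives covered normalization, covariates, filters, probe set choice, variance model, controls, the replicate block and left-out arrays. Same-numbered arrays deviated together no more than others (median r 0.01, range -0.3 to 0.45, against a median of -0.01), so the numbers were not used to pair them.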

Additional observations from a re-analysis of the deposited data

Results flagged for a closer look

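Dixon's gap ratio was taken for 68 groups of values, 1 for each histone gene in each group of 4 arrays. In 6 of the 68 a value stood far from the other 3 of its group, where chance flags about 1 in 20. Men1 Rbp2 RIP-Cre array 3 stood low for 4 genes: H2ac15 at 9.36, H2bc9 at 9.17, H2ac1 at 8.95 and H2az2 at 9.55. That array held the lowest value of its group for 18 of the 34 histone genes. H4c6 stood low at 9.68 on Men1 Rbp2 RIP-Cre array 2. H2bc18 stood high at 8.14 on Rbp2 RIP-Cre array 4. Without Men1 Rbp2 RIP-Cre array 3, 17 histone genes were called higher in that group relative to RIP-Cre islets. Of all genes 13.3% were then called higher and 19.7% lower.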

How the results depend on the processing

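Of 120 recomputed counts of called histone genes 92 stayed within 1.5 times the reported count, and of 964 recomputed differences of named genes 825 kept their direction and side of the threshold, 98 lost the call and 13 gained one. The other 28 were called in neither fit and changed sign, with recomputed values from -0.24 to 0.28. No called difference changed sign. With the array median as a covariate the count was 2 in Men1 Rbp2 RIP-Cre islets relative to RIP-Cre. It was 0 in Men1 RIP-Cre islets and 0 in Rbp2 RIP-Cre islets. In Men1 Rbp2 RIP-Cre relative to Rbp2 RIP-Cre islets it was 1, where 1.36% of all genes were higher and 1.19% lower. The array medians of Men1 Rbp2 RIP-Cre and Men1 RIP-Cre islets do not overlap with those of RIP-Cre islets. Covariate and genotype therefore cannot be told apart in the comparisons of these groups with RIP-Cre. With wt as the control, 13 were called in Men1 RIP-Cre islets (7 higher, 6 lower), where 15.9% of all genes were higher and 36.7% lower. With wt and RIP-Cre pooled, 17 were called in Men1 RIP-Cre islets (10 higher, 7 lower), where 18.2% of all genes were higher and 45.5% lower. In Rbp2 RIP-Cre islets 12 were called (9 higher, 3 lower), where 11.9% of all genes were higher and 19.3% lower. Cyclic loess gave 7 in Rbp2 RIP-Cre islets (6 higher, 1 lower), where 5.61% of all genes were higher and 3.81% lower. It gave 17 higher and none lower in Men1 Rbp2 RIP-Cre islets, where 13.9% of all genes were higher and 11.4% lower. Without the 3 control arrays of high median 2 were called in Rbp2 RIP-Cre and 8 in Men1 Rbp2 RIP-Cre islets. All of these were higher, where 1.52% and 7.55% of all genes were higher. For Men1 Rbp2 RIP-Cre relative to Men1 RIP-Cre islets the count was 1 under quantile normalization, under the replicate block and with only the groups compared. Of all genes 0.873%, 0.848% and 1.09% were called higher in these fits, and 0.567%, 0.361% and 0.592% lower. Relative to RIP-Cre, the replicate block gave 12 calls in Men1 Rbp2 RIP-Cre islets, all higher (11.9% of all genes higher, 20.1% lower). It gave 12 in Men1 RIP-Cre islets, 9 higher and 3 lower (15.8% and 38.9% of all genes). In Rbp2 RIP-Cre islets it gave 4, all higher (5.82% and 7.13% of all genes). With each array left out in turn the counts relative to RIP-Cre ran from 8 to 17 in Men1 Rbp2 RIP-Cre islets. They ran from 6 to 12 in Men1 RIP-Cre islets and from 0 to 6 in Rbp2 RIP-Cre islets. Of all genes, the shares called higher ran from 6.3% to 13.3%, from 11.5% to 15.5% and from 0.622% to 7.37% for these groups. The shares called lower ran from 5.59% to 24.0%, from 19.4% to 39.7% and from 0.497% to 9.99%. The counts ran from 0 to 3 in Men1 Rbp2 RIP-Cre relative to Men1 RIP-Cre, from 0 to 2 relative to Rbp2 RIP-Cre, and from 0 to 1 for the interaction. Of all genes, from 0.396% to 0.963%, from 0.281% to 0.702% and from 0.0752% to 9.93% were called higher there. From 0.16% to 0.401%, from 0.266% to 0.662% and from 0.0351% to 4.03% were called lower. The count between RIP-Cre and wt was 0 throughout. Except where stated, the cause of these changes was not tested. The SD between arrays of a group, pooled over groups, ran from 0.09 to 0.4 over the histone genes with a median of 0.17.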

Other observations

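The largest differences among histone variants in Men1 RIP-Cre islets lay outside the prefixes. Macroh2a2, a macroH2A gene whose large H2A variant is found in silent chromatin, was higher than in RIP-Cre islets by 1.31 in Men1 Rbp2 RIP-Cre islets (SE 0.27, limma adjusted p = 0.00422) and by 1.78 in Men1 RIP-Cre islets (SE 0.29, limma adjusted p = 0.000494). In Rbp2 RIP-Cre islets the difference was 0.66 (SE 0.27, limma adjusted p = 0.0919), not called. Macroh2a1, the other macroH2A gene, was higher by 0.68 in Men1 Rbp2 RIP-Cre (SE 0.14, limma adjusted p = 0.00449) and by 0.76 in Men1 RIP-Cre islets (SE 0.15, limma adjusted p = 0.00154), with 0.42 (SE 0.14, limma adjusted p = 0.0563) in Rbp2 RIP-Cre islets. H2ap was lower in Men1 Rbp2 RIP-Cre (difference -0.65, SE 0.16, limma adjusted p = 0.00973) and Men1 RIP-Cre islets (difference -0.92, SE 0.17, limma adjusted p = 0.00117), and H2bu2 in Men1 RIP-Cre islets (difference -0.34, SE 0.09, limma adjusted p = 0.00814). Of the 9 measured genes of this list, 2 were called higher and 1 lower in Men1 Rbp2 RIP-Cre islets, 2 higher and 2 lower in Men1 RIP-Cre islets and none in Rbp2 RIP-Cre islets. Of all genes 13.0% were called higher and 20.6% lower in Men1 Rbp2 RIP-Cre and 15.7% and 37.8% in Men1 RIP-Cre islets. The median differences of the 9 genes were -0.07 in Men1 Rbp2 RIP-Cre, -0.2 in Men1 RIP-Cre and -0.12 in Rbp2 RIP-Cre islets.

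A second probe set of H2az1 was called higher in all 3 knockout groups relative to RIP-Cre, by 0.89 in Men1 Rbp2 RIP-Cre, 0.71 in Men1 RIP-Cre and 0.7 in Rbp2 RIP-Cre islets.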
